A study of Danio rerio with 6 samples.

Results

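The genes described are myd88 and its direct signalling partners, chosen by gene symbol: the adaptor myd88 itself, the kinases irak1, irak3 and irak4, the adaptors tirap, ticam1 and sarm1, the regulator tollip, and the receptors tlr1 and tlr2. Of these 10 symbols, 8 had a row in the deposited table of 17835 genes. tirap and sarm1 had no row under their symbols or under the identifiers that a table of gene names gives them, and were not analysed here. Of the 8 genes, 7 were among the 16383 genes tested, which had a mean value above 5, and tlr2 was below that minimum.

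The RNA came from endocardial cells, the inner lining of the heart, of cryoinjured zebrafish ventricles at 96 hours post cryoinjury (hpci). Cells were sorted as EGFP+ and DAPI-negative from the ET(krt4:EGFP)sqet33-1A enhancer trap line, which all fish carried. There were 3 libraries from myd88+/+ (wild-type) fish and 3 from their myd88-/- (mutant) siblings, each from a pool of 4 ventricles, and the study set out to learn how MyD88 signalling acts in endocardial cells of the regenerating heart. The mutants carried the myd88 hu3568 allele in all cells of the body, so the genotypes differed in leukocytes as well as in endocardium. Per the study's reporting summary, its fish belonged to the AB strain and were between 3 and 12 months old.

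MyD88 is the adaptor through which most Toll-like receptors and the interleukin-1 receptors signal. Through its TIR domain it binds the activated receptor, and through its death domain it gathers the kinases IRAK4 and IRAK1 into a complex called the Myddosome, from which the signal passes by TRAF6 and TAK1 to NF-kB and MAP kinases. From work in mammals, IRAK3 and TOLLIP are known to dampen this route, TIRAP bridges some receptors to MyD88, TICAM1 (TRIF) carries a branch that does not need MyD88, and SARM1 is a TIR protein best known for its role in axon loss. Endothelial cells use the pathway to sense damage as well as infection.

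The values, called normalized counts here, are whole numbers that look like gene counts scaled for library size and rounded, the scaling being the authors' as their methods describe it. Poisson intervals and counting errors treat them as counts. They summed to 11530505 to 11847536 in wild-type and 11136966 to 11348450 in mutant libraries. Among markers of cell types, the 16 endocardial and endothelial markers were all listed and summed to 64025 to 71402 in wild-type and 51666 to 64081 in mutant libraries. By gene, 9 of them had a lower and 7 a higher estimate in mutants. Cardiomyocyte markers summed to 15516 to 24956 against 15175 to 21448. The epicardial and fibroblast list summed to 145383 to 165281 against 126482 to 137319. Most of this came from col1a1a, dcn and aldh1a2, while by gene 5 of the list had a lower and 5 a higher estimate in mutants. The paper reports high col1a1a in a collagen-rich endocardial cluster. It uses Aldh1a2 to mark activation in both endocardium and epicardium. For dcn, with a mean of 40865 over the 6 libraries, the cells of origin were not tested. Means over the 6 libraries were 6447 for postnb, 956.5 for pdgfra, 558.5 for lum and 168 for tbx18. For tcf21, wt1b and wt1a they were 58.7, 32.2 and 12.8. The share of epicardial cells and fibroblasts in the sorted pools was not tested. Of 15 macrophage markers 14 were listed, with sums of 2442 to 5803 in wild-type and 1507 to 3427 in mutant libraries. Of 10 neutrophil markers 4 were listed (86 to 214 against 53 to 84), and the defining ones, mpx and lyz, were not. Leukocyte-wide markers summed to 556 to 1185 against 545 to 1114, and erythroid and thrombocyte markers to 52 to 494 against 269 to 713. Of 9 T and NK cell markers only 2 were listed (12 to 34 against 11 to 31). In such sorted pools, fewer cells of a type and less RNA per cell cannot be told apart.

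Among the 7 genes tested, myd88 had the largest difference between the genotypes, a lower level in mutants, which did not reach the adjusted threshold. The 6 partners tested had estimates from -0.00068 to 0.38 on the log2 scale, and each of their 95% intervals included 0. At the study's limits, an adjusted p under 0.05 with a change of more than 1.5-fold, limma called 0 of the 7, where it called 115 of all genes tested (0.702%; 23 higher and 92 lower in mutants). An unadjusted p under 0.05 was reached by 1 of the 7, against 13.2% of all genes tested. In 1 of the 7, myd88, every mutant library was below every wild-type library, which held for 8.98% of all genes tested. In 1 other, irak4, every mutant library was above every wild-type library, as in 9.09% of all genes tested. With 7 genes, 1 is close to what each of these shares amounts to, so the counts do not set the members apart from other genes.

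**Figure D1:**
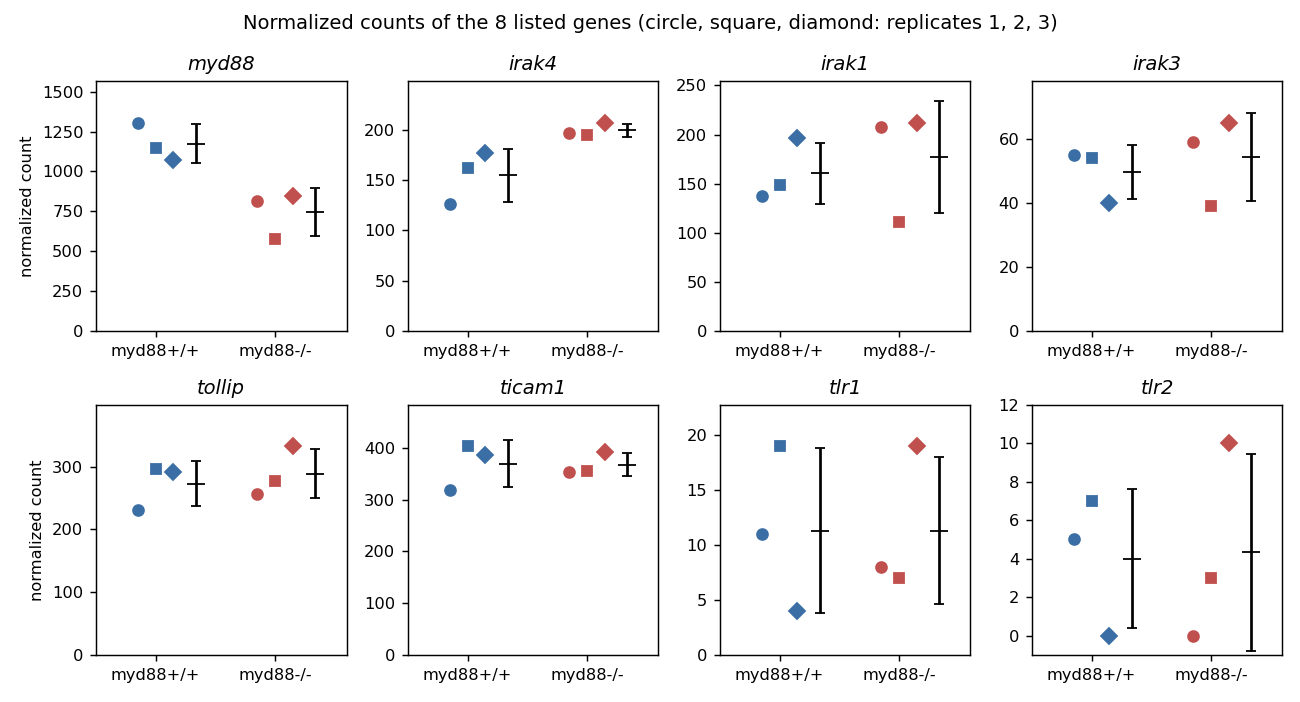
Normalized counts of the 8 listed genes on linear axes, with 1 symbol for each library (blue, myd88+/+; red, myd88-/-) and black bars for the mean ± SD of 3 libraries. The genotypes are apart for myd88 (1070 to 1305 against 575 to 849) and irak4 (126 to 177 against 195 to 207), and the symbols overlap for the other 6 genes.

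myd88 (ENSDARG00000010169) is annotated at 20188914 to 20192996 of chromosome 24 on danRer11, minus strand, and overlaps no other listed gene. Its normalized counts were 1305, 1149 and 1070 in wild-type replicates 1 to 3 and 817, 575 and 849 in mutant replicates 1 to 3. The lowest wild-type library was thus above the highest mutant library, and mutant replicate 2 was the lowest of all. Transcript reads were far from lost in mutants: the mean was 1175 ± 120 (SD, n = 3) in wild-type and 747 ± 150 in mutant libraries, or 63.6% of the wild-type level. The fitted ratio of mutant to wild type was 0.629, with a 95% interval of 0.482 to 0.822. On the log2 scale this was -0.67 ± 0.17 (SE), with a limma p of 0.00347 unadjusted and 0.150 adjusted over all genes tested. The hu3568 allele is known as a point mutation that makes a premature stop codon. A count over the whole gene does not show the changed base, so the level neither proves nor contradicts a library's genotype. The paper cites earlier work on uninfected embryos in which myd88 itself differed between the genotypes, put down to a less stable mutant transcript. The part of transcript stability in the level seen here was not tested.

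The spread of myd88 between libraries was wider than counting alone would give. The coefficient of variation was 10.2% in wild-type and 20.06% in mutant libraries, where counting error at those means is about 2.92% and 3.66%. The estimate had the same sign whichever library was left out, from -0.49 without myd88-/- replicate 2 to -0.77 without myd88-/- replicate 3. Its adjusted p then ran from 0.0711 to 0.415.

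Macrophages also express myd88, and their marker genes were lower in most mutant libraries. Of the 14 macrophage markers tested, 13 had a lower and 1 a higher estimate in mutants, with a median of -0.79 on the log2 scale. The higher one, csf1ra, had 4, 19 and 18 in wild-type and 11, 27 and 42 in mutant libraries. An unadjusted limma p under 0.05 was reached by 6, all lower, where 13.2% of all genes tested reached it, and 0 were past the criteria. Markers of 1 cell type can vary together, so these are not 14 separate results. Of 7 leukocyte-wide markers tested, 5 had a lower and 2 a higher estimate, with a median of -0.027. mpeg1.1, the marker most used for macrophages in zebrafish, had 237, 345 and 175 against 132, 169 and 266, which overlapped. marco, a macrophage scavenger receptor chosen here after its values were seen, had normalized counts of 475, 1008 and 376 in wild-type and 138, 95 and 303 in mutant libraries. The marker sums were 4374, 5803 and 2442 in wild-type replicates 1 to 3 and 1507, 1941 and 3427 in mutant replicates 1 to 3. Mutant replicates 1 and 2 were thus below every wild-type library both in marker sum and in myd88. By contrast, myd88-/- replicate 3 had a higher marker sum than myd88+/+ replicate 3 and less myd88 (849 against 1070). The part of macrophage RNA in the difference of myd88 was not tested.

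**Figure D2:**
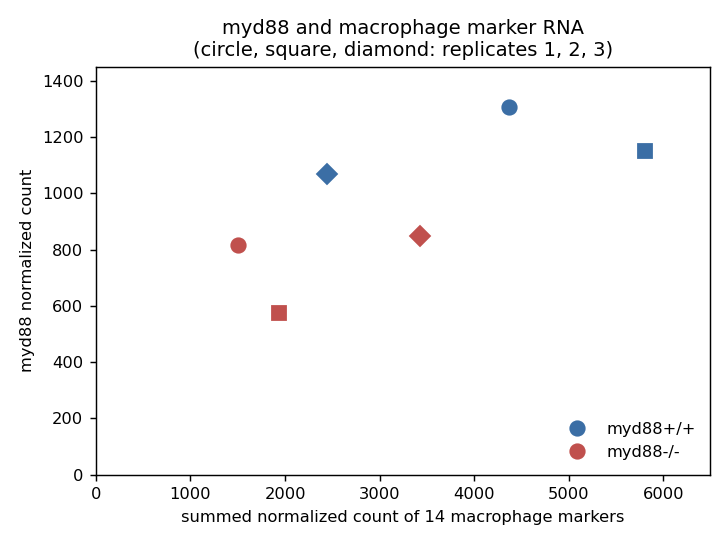
Normalized count of myd88 (y axis) against the summed normalized count of 14 macrophage markers (x axis), 1 symbol for each library, both axes from 0. All 3 mutant libraries (red) lie below the 3 wild-type libraries (blue) in myd88. On the x axis, mutant replicates 1 and 2 (1507 and 1941) lie to the left of every wild-type library. There, myd88-/- replicate 3 at 3427 lies to the right of myd88+/+ replicate 3 at 2442.

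The genes next to myd88 were looked up by position, since they lie in the same stretch of chromosome 24. The nearest listed gene on one side, cry-dash, a cryptochrome-family gene on the minus strand whose nearer end lies 1.03 kb away (20194022 to 20208474), had normalized counts of 68, 54 and 71 in wild-type and 32, 35 and 49 in mutant libraries. Its genotypes did not overlap either, with a log2 fold change of -0.73 ± 0.26 (SE) and an adjusted p of 0.274 by limma. On the other side oxsr1b, a stress-responsive kinase gene 35.9 kb away, had 316, 333 and 399 against 422, 437 and 351, which overlapped (log2 fold change 0.21 ± 0.15). The part of the surrounding chromosome in the level of myd88 was not tested.

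IRAK4 is the first kinase to join MyD88 in the Myddosome. For irak4 (ENSDARG00000100534, chromosome 25, minus strand, 768014 to 774471) the normalized counts were 126, 162 and 177 in wild-type and 197, 195 and 207 in mutant libraries. The mutant libraries lay close together and above the wild-type range, in which replicate 1 was low. Their means were 155 ± 26.2 and 200 ± 6.43 (SD, n = 3), a ratio of 1.30 with a 95% interval of 0.988 to 1.71. The log2 fold change of 0.38 ± 0.17 (SE) had a limma p of 0.0590 unadjusted and 0.398 adjusted. Leaving out wild-type replicate 1 gave 0.24 and leaving out wild-type replicate 3 gave 0.48, so the size rested in part on single wild-type libraries.

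IRAK1, which IRAK4 phosphorylates, gave no such separation. The normalized counts of irak1 (ENSDARG00000025949, chromosome 8, minus strand, 7571095 to 7603700) were 137, 149 and 196 in wild-type and 208, 111 and 212 in mutant libraries. Mutant replicate 2 was the lowest library of all 6 while the other mutant libraries were the highest, so the mutant group spanned the whole range. The ratio of mutant to wild type was 1.07, with a 95% interval of 0.699 to 1.64 and an adjusted p of 0.911 by limma. When mutant replicate 2 was left out, the log2 fold change of 0.10 became 0.40, and it was below 0 in 3 of the 6 fits that left out a library.

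irak3 encodes a pseudokinase (IRAK-M in mammals) that holds back the release of IRAK1 from the receptor complex. For irak3 (ENSDARG00000053131, chromosome 4, minus strand, 12782134 to 12790990) the normalized counts were 55, 54 and 40 in wild-type and 59, 39 and 65 in mutant libraries. The genotypes overlapped, and the ratio was 1.08 (95% interval 0.699 to 1.66, limma adjusted p 0.901). Its span overlaps that of b2m on the same strand, and the authors did not count a read that lay on both. At about 50 counts, counting error alone is 14.2% of the wild-type mean and 13.6% of the mutant mean, against coefficients of variation of 16.9% and 25.1%.

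tollip, whose product binds interleukin-1 receptors and IRAK1 and sorts receptors to endosomes, was close to even. Its normalized counts (ENSDARG00000098486, chromosome 7, plus strand, 72276511 to 72290596) were 231, 296 and 291 in wild-type and 256, 277 and 332 in mutant libraries. The ratio was 1.06 with a 95% interval of 0.814 to 1.37, which leaves room for a change of either sign smaller than 1.5-fold. The span overlaps slc35c1 on the other strand.

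ticam1, the adaptor of the route that bypasses MyD88, was the partner with the narrowest interval. The normalized counts (ENSDARG00000102493, chromosome 22, plus strand, 4442473 to 4445833) were 318, 403 and 387 in wild-type and 354, 356 and 393 in mutant libraries. The mutant libraries all fell within the wild-type range. The ratio was 1.00, with a 95% interval of 0.797 to 1.25 and an adjusted p of 0.999 by limma, so a 1.5-fold difference in either direction lies outside the interval. Scaling the libraries to equal totals moved the log2 fold change from -0.00068 to 0.059.

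**Figure D3:**
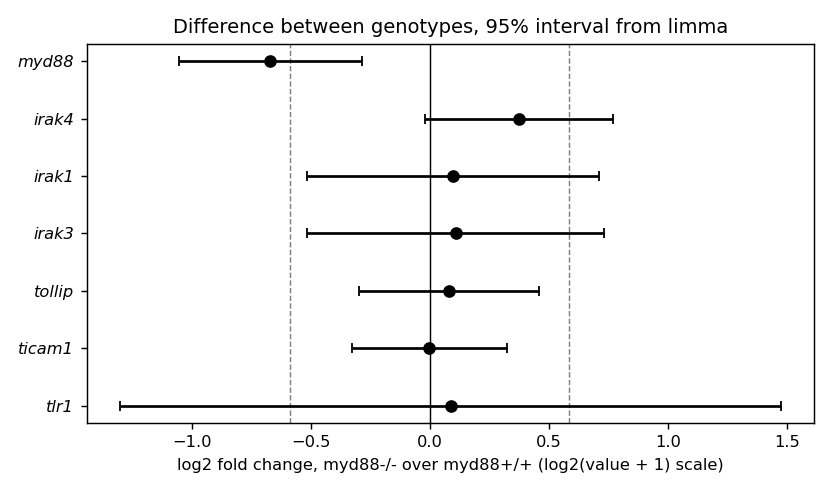
Log2 fold change of myd88-/- over myd88+/+ libraries for the 7 genes tested (points) with 95% intervals from limma (bars); dashed lines mark a 1.5-fold change. The interval of myd88 lies below 0 (-1.05 to -0.28), that of irak4 reaches just under 0 (-0.02 to 0.77), and that of tlr1 is the widest (-1.30 to 1.48).

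The receptors tlr1 and tlr2, cell surface sensors that recognise bacterial lipoproteins as a pair in mammals, were barely detected. tlr1 (chromosome 14, minus strand, 731864 to 736575) had normalized counts of 11, 19 and 4 in wild-type and 8, 7 and 19 in mutant libraries. Summed over a genotype it was 34 in each, and an exact Poisson 95% interval for such a sum runs from 23.5 to 47.5 and covers counting error only. tlr2 (chromosome 1, plus strand, 8984068 to 8988504) had 5, 7 and 0 against 0, 3 and 10. In each genotype 1 library was at 0, which allows up to 3 counts, and the sums were 12 (6.20 to 21.0) and 13 (6.92 to 22.2). The interval of tlr1 spanned ratios from 0.406 to 2.78, and its estimate, 0.088 on the log2 scale, turned to -0.46 when wild-type replicate 3 was left out and to 0.54 when wild-type replicate 2 was. Its coefficients of variation, 66.2% in wild-type and 58.8% in mutant libraries, were above the 29.7% that counting alone gives, and a difference between genotypes was not detectable with these libraries.

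Because scaling of a library cancels in a ratio of 2 genes from it, myd88 was also set against each partner within libraries. The ratio of myd88 to irak4 was 10.4, 7.09 and 6.05 in wild-type and 4.15, 2.95 and 4.10 in mutant libraries. Every mutant library was below every wild-type library, by 1.05 on the log2 scale on average. The ratio to irak3, 23.7, 21.3 and 26.8 against 13.8, 14.7 and 13.1, was the tightest within genotypes (log2 difference -0.78). For irak1 the ratio was 5.46 to 9.53 against 3.93 to 5.18, for tollip 3.68 to 5.65 against 2.08 to 3.19, and for ticam1 2.76 to 4.10 against 1.62 to 2.31. All 5 ratios kept the genotypes apart, as the counts of myd88 did alone. They share myd88 as numerator, so they are not 5 separate results and add no support beyond myd88 itself. The share of all genes that would keep the genotypes apart as denominator was not computed. A two-sided exact permutation test of each gave p = 0.1, the smallest value that 3 against 3 libraries allow. Since the counts were not divided by transcript length, the ratios compare libraries and not the amounts of 2 transcripts.

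**Figure D4:**
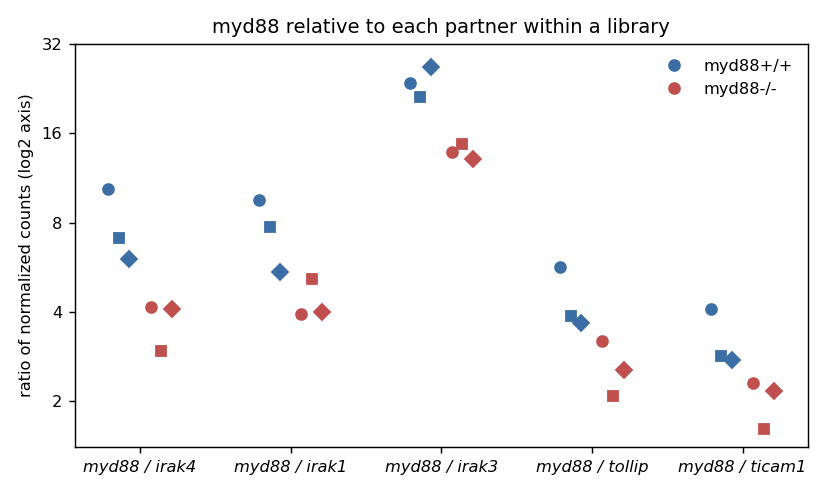
Ratio of the normalized count of myd88 to that of 5 partners within each library, on a log2 axis, with circle, square and diamond for replicates 1, 2 and 3. In each pair the 3 mutant ratios (red) lie under the 3 wild-type ratios (blue), for irak4 at 2.95 to 4.15 against 6.05 to 10.4.

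Genes of the rest of the pathway were then taken from 5 lists chosen by name: other Toll-like receptors, the interleukin-1 receptor family and its ligands, proteins that fold or sort receptors or act as ligands, the ubiquitin and kinase steps below the IRAKs, and inhibitors. Of 92 symbols 61 were listed, in 62 rows, of which 59 were tested. By limma 0 of the 59 were past the criteria, 34 had a higher and 25 a lower estimate in mutants, and the median log2 fold change was 0.14, against 0.01 over all genes tested. An unadjusted p under 0.05 was reached by 13 (22.0%, against 13.2% of all genes tested), 8 higher and 5 lower. The genotypes did not overlap in 10 that were higher (16.9%) and 5 that were lower (8.47%), beside the 9.09% and 8.98% of all genes tested given above.

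**Figure D5:**
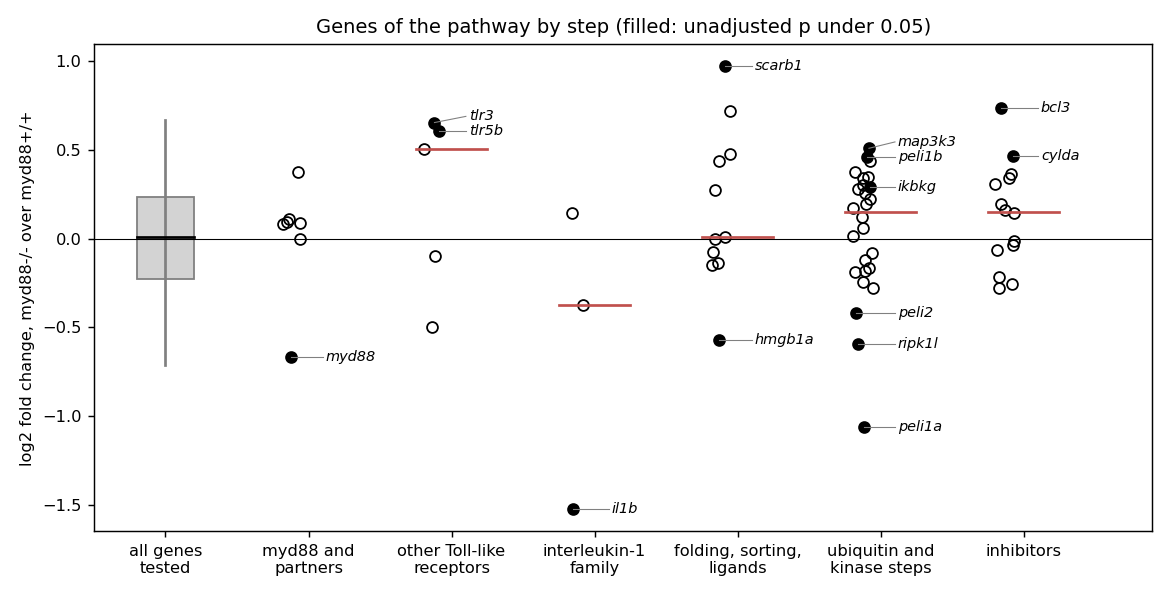
Log2 fold change of each gene tested, by step of the pathway, with filled and named points for an unadjusted p under 0.05 and a red line at the median of a list. The grey box spans the quartiles of all genes tested and its line the central 90% of them; il1b at -1.53 is the lowest point and scarb1 at 0.97 the highest.

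Among the 5 other Toll-like receptors tested the median was 0.51. tlr5b, a receptor for bacterial flagellin, had normalized counts of 1141, 1004 and 832 in wild-type and 1594, 1405 and 1500 in mutant libraries, without overlap. The estimate on the log2 scale was 0.61 ± 0.14 (SE), and limma gave a p of 0.00215 unadjusted and 0.126 adjusted. It overlaps thbd on the same strand. tlr3, the endosomal receptor for double-stranded RNA that signals through TICAM1, had 217, 319 and 187 against 352, 483 and 299, which overlapped (0.66 ± 0.24, adjusted p 0.294). The flagellin receptor tlr5a had 26, 41 and 33 against 63, 47 and 35. The estimates of tlr7, a sensor of single-stranded RNA, and of tlr8b were -0.095 and -0.50, and tlr19, tlr21 and tlr22 were below the minimum for testing.

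Of the 14 symbols in the interleukin-1 list 3 were listed. il1b, the cytokine that acts through the interleukin-1 receptor and MyD88, had low normalized counts of 21, 18 and 13 in wild-type and 4, 6 and 6 in mutant libraries. The genotypes did not overlap, and limma put the difference at -1.53 ± 0.43 (SE) on the log2 scale, p 0.00587 unadjusted and 0.177 adjusted. Leukocytes are a main source of il1b. Macrophage markers were lower in most mutant libraries, while leukocyte-wide markers had a median of -0.027 on the log2 scale. The part of leukocyte RNA in the il1b difference was not tested. il1fma, another gene of the interleukin-1 ligand family, had 33, 46 and 6 against 9, 31 and 15. The receptor-like gene il1rapl1a had 261, 417 and 454 against 541, 264 and 466, and both pairs of groups overlapped.

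In the list of folding, sorting and ligand genes the median was 0.01, with 6 higher and 5 lower. The lipoprotein receptor scarb1 had the highest estimate of all 59 (73, 75 and 77 against 123, 153 and 173; log2 fold change 0.97 ± 0.19, adjusted p 0.0679). hmgb1a, which encodes a chromatin protein that acts as a damage signal once outside the cell, had 3191, 2519 and 2446 in wild-type and 1493, 1749 and 2305 in mutant libraries (-0.57 ± 0.18, adjusted p 0.225). Its paralogue hmgb1b was even, at 3478 ± 116 and 3499 ± 526 (SD, n = 3). The chaperone hsp90b1, needed for most Toll-like receptors to fold, had a log2 fold change of 0.27 ± 0.16, and hmgb2b one of -0.15 ± 0.15.

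Among the 26 ubiquitin and kinase genes 16 had a higher and 10 a lower estimate, with a median of 0.15. Of the 4 Pellino genes, E3 ligases that act on IRAKs, 1 had a higher and 3 a lower estimate, and none was past the criteria. peli1a had 392, 301 and 201 in wild-type and 98, 120 and 220 in mutant libraries (-1.06 ± 0.33, adjusted p 0.217). Without myd88-/- replicate 3, its highest mutant library, it was -1.40 with a limma adjusted p of 0.0447, past the criteria. That fit called 255 of all genes against 115 in the main fit. With other libraries left out, the adjusted p of peli1a ran up to 0.556. peli1b had 327, 284 and 288 against 411, 317 and 537 (0.46 ± 0.20), and peli2 had 217, 196 and 267 against 152, 190 and 163 (-0.42 ± 0.18). The estimates were 0.29 for ikbkg, the regulatory subunit of the IkB kinase complex, 0.51 for the kinase gene map3k3 and -0.60 for ripk1l. ube2na, whose E2 enzyme builds ubiquitin chains with TRAF6, and the E2 variant genes ube2v2 and ube2v1 lay at -0.12, 0.062 and -0.16.

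Of 14 rows of inhibitors, 8 had a higher and 6 a lower estimate, with a median of 0.15. cylda, which encodes a deubiquitinase that takes these chains apart, had 185, 192 and 205 in wild-type and 275, 275 and 256 in mutant libraries, without overlap (0.47 ± 0.14, limma adjusted p 0.201). bcl3, an IkB-family regulator of NF-kB, had 475, 431 and 277 against 683, 417 and 922 (0.74 ± 0.30, adjusted p 0.340). The transcription factor gene atf3 and the ubiquitin-binding tnip1 had estimates of -0.035 and -0.26.

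The genes whose profile was most like that of myd88 were sought among 10624 others. These had a mean of at least 50 and a symbol without a colon. Likeness was measured by the root mean square difference of log2 values centred on each gene's mean over the 6 libraries. The nearest were tacc1 (0.0742), hspg2 (0.0752), CR735102.1 (0.0826), dao.2 (0.0833), mtus1b (0.0834) and srgap2 (0.0956), against a median of 0.448 over all genes compared. hspg2, which encodes the basement membrane proteoglycan perlecan, had 2834, 2510 and 2601 in wild-type and 1683, 1330 and 1869 in mutant libraries. In these 6 genes the mutant mean was 60.3% to 68.3% of the wild-type mean. A level near the 63.6% of myd88 follows from choosing them by likeness to it. None of the 6 lies on chromosome 24, and none was past the criteria. Without myd88-/- replicate 3, hspg2, mtus1b and srgap2 were past the criteria, with limma adjusted p-values of 0.0274, 0.0368 and 0.0447. That fit called 255 of all genes, against 115 in the main fit. The 6 genes were also chosen for a profile that is lower in mutants, so these calls are no separate support. With 6 libraries many genes resemble one another, and the likeness is a description of these libraries alone.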

How the data were processed

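Per the methods of the study, the authors trimmed reads with Trimmomatic, aligned them with STAR 2.7.10a to danRer11, took out duplicate, multimapping, ribosomal and mitochondrial reads with Picard 3.0.0, and counted reads on exons with featureCounts 2.0.4, leaving out any that fell on more than one gene. Whether strand was used is not given in the sources used here. The authors' normalization was by DESeq2 1.36.0. The deposited values are treated as a score: they are whole numbers that look like such normalized counts after rounding, which the file itself does not state.

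Here limma 3.58.1 in R 4.3.3 was run on log2(value + 1), two-sided, with lmFit, eBayes with an intensity trend and genotype as the only term, on all genes with a mean above 5, with Benjamini-Hochberg adjustment over these 16383. The pseudocount shrinks the fold changes of low genes. The test was checked on simulated counts that had the same relative spread beyond counting error for every gene. That check does not cover genes with another spread. Intervals are 95% and assume that libraries are independent. The libraries are separate pools, but no batch or clutch is labelled. The named genes were the members, list genes with an unadjusted p under 0.05, past the criteria or among the 3 most abundant of a list, and the 6 profiles most like myd88; marker genes, genes next to myd88, tlr7, tlr8b and the Toll-like receptors below the minimum fall outside this rule and were named after their values were seen. Alternatives were another pseudocount, other minimum means, equal totals, no trend, a replicate block and leaving out each library. The members, lists and alternatives were chosen with earlier results of these data known. All 6 columns of values were used. Sequences of these genes were not used here.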

Additional observations from a re-analysis of the deposited data

How the results depend on the processing

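Under all 12 alternatives run, 0 members were past the criteria, and myd88 and irak4 kept their sign. The number with an unadjusted p under 0.05 was 2 with equal totals (myd88 and irak4), and 1 to 2 with a library left out (2 without myd88+/+ replicate 3). Genes past the criteria numbered 25 without the trend, and 28 (without myd88+/+ replicate 2) to 255 (without myd88-/- replicate 3) with a library left out. With equal totals ticam1 (0.059), hmgb1b (0.058) and atf3 (0.025) turned positive, and the median of the ubiquitin and kinase list was 0.21. Every wild-type library had a higher total than every mutant library, so equal totals raised the estimates, that of myd88 from -0.67 to -0.61. The median of other Toll-like receptors was 0.095 with all listed genes, which adds 3 genes below the minimum, and that of the interleukin-1 list was 0.14 with a minimum mean of 50, which left 1 gene. At that minimum tlr1 was not tested. The cause of the other shifts was not tested.

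Replicate numbers showed no clear pairing of the libraries: deviations of same-numbered libraries correlated at -0.12, 0.13 and -0.14. Those of differently numbered libraries ran from -0.18 to 0.25. With 3 libraries per genotype, such correlations cannot exclude a shared batch or clutch. With a replicate block 45 genes were past the criteria, the adjusted p of myd88 was 0.225, and no member's call changed.

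With a library left out, log2 fold changes of these genes took both signs: irak1 (-0.062 to 0.40), irak3 (-0.037 to 0.33), ticam1 (-0.10 to 0.066), tollip (-0.034 to 0.16), tlr1 (-0.46 to 0.54), il1rapl1a (-0.10 to 0.45), il1fma (-1.21 to 0.16), hmgb1b (-0.11 to 0.10), ube2na (-0.25 to 0.029), ube2v2 (-0.0029 to 0.16) and atf3 (-0.24 to 0.070). List medians ran from 0.30 to 0.62 for other Toll-like receptors, -1.21 to 0.16 for the interleukin-1 list, 0.0069 to 0.20 for folding, sorting and ligands, 0.068 to 0.22 for ubiquitin and kinase steps and 0.072 to 0.23 for inhibitors. Depth limits tlr1 most among the tested members: counting error alone is 29.7% of its mean.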

Other observations

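Some receptor genes of the family carry no receptor symbol in the table and were found by the file's own descriptions, after values had been seen. CABZ01054965.1 (chromosome 9), described as like interleukin-1 receptor type 1, had normalized counts of 698, 609 and 609 in wild-type and 443, 673 and 661 in mutant libraries. These overlapped (log2 fold change -0.13 ± 0.18 (SE), limma adjusted p 0.801). si:ch211-106k21.5 (chromosome 2), described as a Toll-like receptor, had 90, 55 and 70 against 70, 66 and 58. Another such gene, ENSDARG00000088672 (chromosome 9), described like the first, had 30, 39 and 15 against 24, 31 and 39, with a positive estimate (0.23 ± 0.39, limma adjusted p 0.846).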
